A study of Homo sapiens with 2 samples.

Results

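The genes described here are NFE2L2, which encodes the transcription factor NRF2, its inhibitor KEAP1, and 8 genes of the antioxidant response: NQO1, SRXN1, OSGIN1, TXNRD1, TXN, PRDX1, GCLC and GCLM. They were chosen by gene symbol, and all 10 were found among the 26255 symbols measured. RNA-seq was done on OVSAHO, a human line established from serous carcinoma of the ovary, in 2 libraries, 1 per group. The A2-siA4 library came from cells with SMARCA2 raised, given as stable in the genotype label, and SMARCA4 knocked down. The Ctrl-siNC library came from cells labelled WT with the NC control. SMARCA2 and SMARCA4 are the alternative ATPases of the SWI/SNF chromatin remodeller. Both cultures were exposed for 2 days to 25 µM of carboplatin, which forms platinum crosslinks in DNA, so no library shows these genes without the drug. The library titles carry the names A2v-6 and Cv-10, and the labels do not say whether these are clones. The study asked how the expression of carboplatin-treated cells differs when SMARCA2 is raised and SMARCA4 lowered.

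NRF2 is made constantly and destroyed constantly: KEAP1 holds it and presents it to a CUL3 ubiquitin ligase. Oxidants and electrophiles modify cysteines of KEAP1, NRF2 then escapes, enters the nucleus, pairs with a small MAF protein and binds the antioxidant response element, a short DNA sequence beside its target genes. The targets make and use glutathione and thioredoxin, the main thiol reductants of the cell. Much of the control of NRF2 acts on the protein, which RNA-seq does not measure.

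The antioxidant response element was looked for in the promoter windows of these genes, to see how many of them held it. RefSeq windows (GRCh38.p14, 250 bases before to 50 after an annotated start) were at hand for 9 of the 10 genes, and PRDX1 had none. The core TGANNNNGC, searched on both strands, was in a window of 6 of these 9 genes, beside 47.1% of all 27305 genes with a window and 41.8% of all 35116 windows. The stricter TGACNNNGC, each match of which is also a match of the core, was in 3 of the 9, GCLM, KEAP1 and TXNRD1. Among all genes with a window 16.1% held it, and 13.3% of all windows. Of 60 other pathway genes with a window, from the lists used further on, 61.7% held the core and 25% held TGACNNNGC. Whether the 9 genes differ from these shares was not tested. Of the 8748 genes with a window and 1 FPKM or more in a library, 1747 held TGACNNNGC and 4484 held the core. OSGIN1 had a TGANNNNGC match that overlapped the letters TGACTCA on the other strand, which occur in 4.95% of windows and were added to the search after the sequences had been read. A match in each of these 4 genes is shown here (KEAP1, TXNRD1, GCLM and OSGIN1 held others of TGANNNNGC too), with 16 bases on each side, read 5′ to 3′ on the strand of the match and with the match in capitals.
GCLM (chr1:93909440-93909480, plus strand): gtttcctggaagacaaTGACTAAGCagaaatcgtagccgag
KEAP1 (chr19:10502778-10502818, plus strand): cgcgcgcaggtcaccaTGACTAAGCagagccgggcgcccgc
TXNRD1 (chr12:104286914-104286954, minus strand): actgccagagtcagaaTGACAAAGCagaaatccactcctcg
OSGIN1 (chr16:83953125-83953165, minus strand): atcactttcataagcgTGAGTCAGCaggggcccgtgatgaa

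The match shown for each gene was picked from those it held, and the search itself fixes the letters other than N. The likeness of the cores is therefore partly built in. KEAP1 also held the TGACNNNGC match TGACACGGC, and TXNRD1 also held TGACTTCGC and TGACGGAGC, which were not compared. In the matches shown, GCLM and KEAP1 held the same core and shared a run of 13 bases around it. With positions counted from 1 at the 5′ end of the core, TXNRD1 differed from both by T5A alone. The TXNRD1 stretch matched that of GCLM at 25 of 41 positions, with a shared run of 11. The OSGIN1 core differed from that of GCLM by C4G and A6C. All 4 matches shown lie on the strand opposite to the gene, whereas TGACACGGC in KEAP1 and TGACTTCGC in TXNRD1 lie on its own strand. Along the gene, the match opens 34 bases before the start in GCLM, 31 in KEAP1, 102 in TXNRD1 and 99 in OSGIN1. In KEAP1 and TXNRD1 it belongs to the downstream one of 2 annotated starts.

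OSGIN1 and SRXN1 were the genes of the group furthest apart between the libraries, so the 250 bases before their starts are shown, read along the gene, with TGANNNNGC matches in capitals, here seen from the other strand.
OSGIN1 (chr16:83952990-83953239, plus strand): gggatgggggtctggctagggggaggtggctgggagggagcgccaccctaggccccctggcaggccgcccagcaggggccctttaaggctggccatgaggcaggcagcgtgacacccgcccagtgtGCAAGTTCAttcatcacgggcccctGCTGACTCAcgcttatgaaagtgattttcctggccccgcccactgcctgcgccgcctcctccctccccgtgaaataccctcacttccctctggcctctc
SRXN1 (chr20:653201-653450, minus strand): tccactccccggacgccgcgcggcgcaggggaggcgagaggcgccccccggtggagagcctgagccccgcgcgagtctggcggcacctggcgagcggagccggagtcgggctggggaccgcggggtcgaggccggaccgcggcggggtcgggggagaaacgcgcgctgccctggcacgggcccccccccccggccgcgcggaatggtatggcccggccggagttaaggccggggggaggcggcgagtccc
The OSGIN1 window held 2 matches of the core and the SRXN1 window none. A match is a run of letters and not a measured binding site, and a window without one says nothing of elements farther away.

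Expression is given in FPKM, fragments per kilobase of transcript and per unit of sequencing depth, which allows levels of different genes to be compared. About 8850000 fragments lay behind the A2-siA4 values and 9050000 behind the Ctrl-siNC values, as estimated from the steps between low values. SMARCA2 was at 2.60 FPKM in A2-siA4 cells and 0.205 FPKM in Ctrl-siNC cells, and SMARCA4 at 4.49 and 27.9 FPKM, both in the direction of the series text. The SMARCA2 values rested on about 31.8 and 2.56 fragments, for a fold of 12.7 (95% counting interval 3.41 to 55.6), and its log2 ratio was within 2-fold, at 0.55, with a pseudocount of 5 FPKM. Of 12 markers of serous ovarian carcinoma, 11 were at 1 FPKM or more in a library, and MUC16 was listed at 0 in A2-siA4 cells and at 0.061 FPKM in Ctrl-siNC cells. By the 2-fold rule given further on, KRT7 was lower, at 119 FPKM in A2-siA4 cells and 540 FPKM in Ctrl-siNC cells, and WT1 higher, at 5.52 and 1.53 FPKM. The part of these markers in the results was not tested. The 5 fibroblast, 4 leukocyte and 3 endothelial markers were all below 1 FPKM in both libraries. Their summed levels were 0.0985, 0.256 and 0.411 FPKM in A2-siA4 cells, against 0.154, 0.251 and 0.349 FPKM in Ctrl-siNC cells.

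With 1 library per group there is no statistical test and no error between cultures. The genes that reached 1 FPKM in a library, called the genes tested here, were held against a rule of size: higher where log2((FPKM + 1) ratio), A2-siA4 over Ctrl-siNC, was at least 1, and lower where it was at most -1. The 95% intervals of folds are exact binomial (Clopper-Pearson) intervals on estimated fragment numbers, taken for the shortest RefSeq-matched transcript of the gene, which gives the widest interval. They cover counting error only. Fewer cells of a type and less RNA per cell cannot be told apart in such libraries.

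All 10 genes were below 0 on the log2 scale as deposited, with TXN turning above 0 once trends were removed, and 2, OSGIN1 and SRXN1, were called lower. None was called higher. Of 11785 genes tested, 7.61% were called lower and 7.85% higher. Among the 5490 with a mean of 10 FPKM or more, where 9 of the 10 genes lie, the shares were 8.60% lower and 4.21% higher. The median log2 ratio of the 10 genes was -0.45, against -0.06 for all genes tested and -0.22 for those with a mean of 10 FPKM or more. Of these more abundant genes 65.0% were below 0. Each of the 10 genes was also below the median of the genes within 2-fold of its own level, by amounts from near 0 for TXN to over a log2 unit for OSGIN1 and SRXN1.

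**Figure D1:**
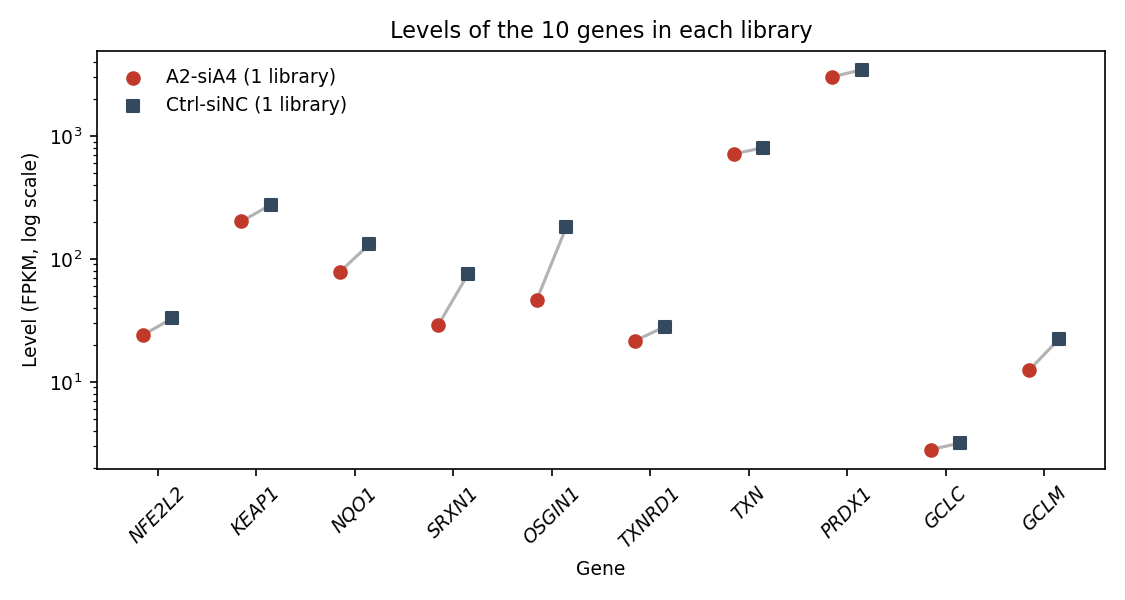
Level of each of the 10 genes (FPKM, log scale) in the A2-siA4 library (red circles) and the Ctrl-siNC library (dark squares), 1 library each, with no error bars because there are no replicates. The lines join the values of a gene, and, as deposited, every A2-siA4 value lies below its Ctrl-siNC value, with the widest gaps at OSGIN1 (46.7 and 182 FPKM) and SRXN1 (29.03 and 74.8 FPKM).

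Among the regulators, NFE2L2 was at 23.9 FPKM in A2-siA4 cells and 33.0 FPKM in Ctrl-siNC cells, 1.38-fold lower (95% counting interval 1.22 to 1.56), with a log2 ratio of -0.45. KEAP1 was at 201 FPKM in A2-siA4 cells and 275 FPKM in Ctrl-siNC cells, 1.37-fold lower (1.32 to 1.42), also with a log2 ratio of -0.45. The transcript of the inhibitor thus stood 8.42 times above that of the factor in A2-siA4 cells and 8.35 times in Ctrl-siNC cells. Neither gene was past 2-fold. Genes within 2-fold of the level of NFE2L2 had a median log2 ratio of -0.25, and those near KEAP1 had -0.24.

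OSGIN1 encodes an oxidative-stress-induced growth inhibitor. It was at 46.7 FPKM in A2-siA4 cells and 182 FPKM in Ctrl-siNC cells, 3.90-fold lower (3.60 to 4.24), on about 719 and 2869 fragments. Its log2 ratio of -1.94 was undercut by 0.789% of all genes tested and by 0.809% of the 1360 genes within 2-fold of its level, whose median was -0.29. OSGIN1 was the fifth most abundant of the 10 genes in A2-siA4 cells, where it stood below NQO1, and the fourth in Ctrl-siNC cells. Relative to NFE2L2, its level was 1.95 in A2-siA4 cells and 5.52 in Ctrl-siNC cells.

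SRXN1 encodes sulfiredoxin, which restores over-oxidized peroxiredoxins. It was at 29.03 FPKM in A2-siA4 cells and 74.8 FPKM in Ctrl-siNC cells, 2.58-fold lower (2.35 to 2.83), on about 642 and 1692 fragments. Its log2 ratio was -1.34, and 3.34% of the 2007 genes of like level had a lower one. PRDX1, a peroxiredoxin that removes hydrogen peroxide and is a substrate of sulfiredoxin, was at 3023 FPKM in A2-siA4 cells and 3451 FPKM in Ctrl-siNC cells, 1.14-fold lower (1.12 to 1.16). The level of PRDX1 was 104 times that of SRXN1 in A2-siA4 cells and 46.1 times in Ctrl-siNC cells.

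NQO1 encodes a quinone reductase that is widely read as a marker of NRF2 activity. It was at 78.4 FPKM in A2-siA4 cells and 131 FPKM in Ctrl-siNC cells, 1.67-fold lower (1.497 to 1.87), within 2-fold. Its log2 ratio was -0.74, and 18.6% of the 1438 genes of like level had a lower one. NQO1 was the fourth of the 10 by level in A2-siA4 cells and the fifth in Ctrl-siNC cells.

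**Figure D2:**
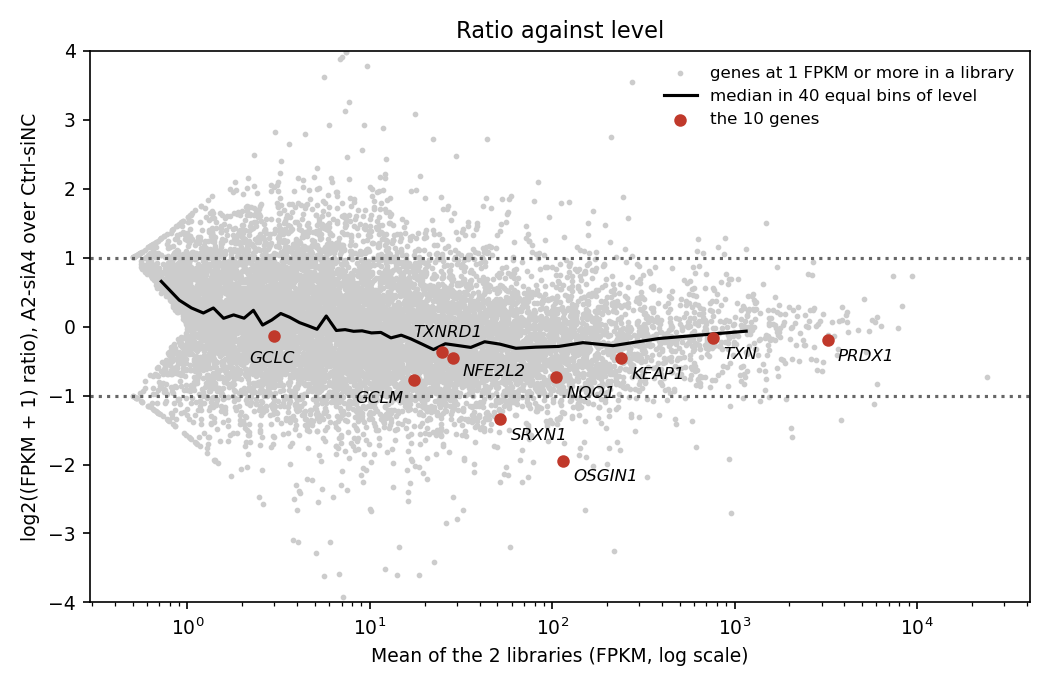
Log2((FPKM + 1) ratio), A2-siA4 over Ctrl-siNC, against the mean level of the 2 libraries (FPKM, log scale) for the genes tested (grey), with the median in 40 bins of equal size (line), the 2-fold rule (dotted) and the 10 genes (red). OSGIN1 at -1.94 and SRXN1 at -1.34 lie below the lower dotted line, the other 8 lie within 2-fold, and 42 grey genes beyond 4 on either side are outside the axes.

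The 2 subunits of glutamate-cysteine ligase, the enzyme of the first and rate-limiting step of glutathione synthesis, differed in level. The counting intervals of their ratios overlap, and the difference between the ratios was not tested. GCLM, the modifier subunit, was at 12.5 FPKM in A2-siA4 cells and 22.2 FPKM in Ctrl-siNC cells, 1.77-fold lower (1.55 to 2.05), with a log2 ratio of -0.78. GCLC, the catalytic subunit, was the least abundant of the 10, at 2.81 FPKM in A2-siA4 cells and 3.18 FPKM in Ctrl-siNC cells. Its fold of A2-siA4 over Ctrl-siNC was 0.885 (0.567 to 1.39), an interval that spans 1, on about 39.9 and 46.0 fragments. A difference in GCLC was not detectable at this depth. The level of GCLM was 4.45 times that of GCLC in A2-siA4 cells and 6.99 times in Ctrl-siNC cells.

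Both genes of the thioredoxin pair were within 2-fold. TXN, the small thiol protein thioredoxin, was at 715 FPKM in A2-siA4 cells and 801 FPKM in Ctrl-siNC cells, 1.12-fold lower (1.07 to 1.18). TXNRD1, the selenoprotein that reduces it with NADPH, was at 21.6 FPKM in A2-siA4 cells and 28.1 FPKM in Ctrl-siNC cells, 1.30-fold lower (1.13 to 1.5). The log2 ratio of TXN was -0.17 beside a median of -0.15 for the 347 genes of like level, and that of TXNRD1 was -0.36 beside -0.23 for 2722 genes. The direction of TXN turned when trends were removed: its log2 ratio was 0.016 without a trend on level and 0.16 once trends on the length and GC content of transcripts had been taken out as well.

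**Figure D3:**
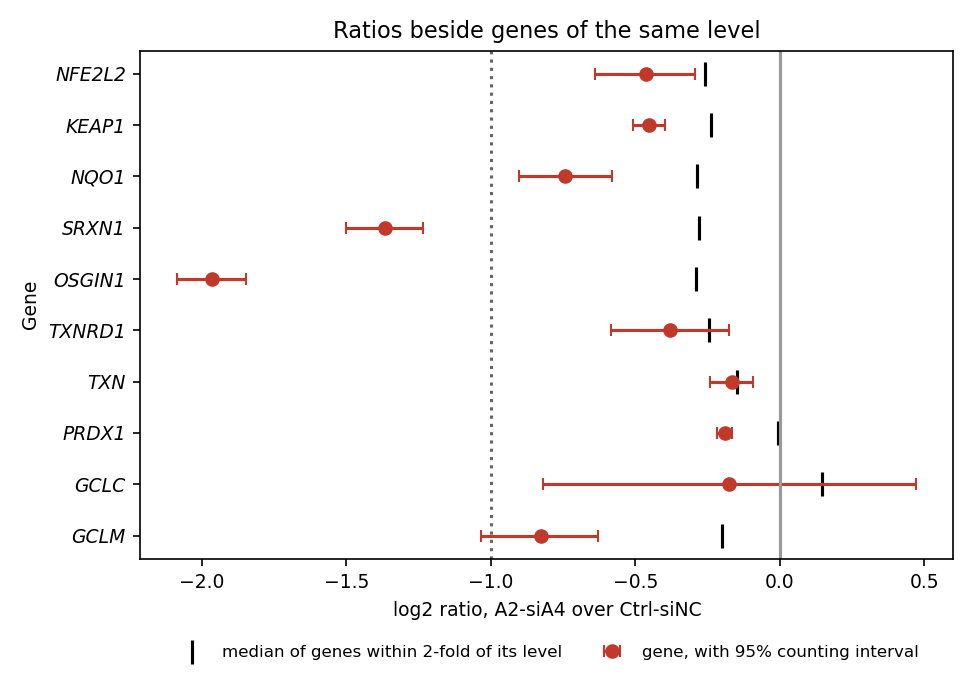
Log2 ratio without a pseudocount, A2-siA4 over Ctrl-siNC, for each of the 10 genes (red points) with its 95% counting interval (bars), beside the median of the genes within 2-fold of its level (black ticks). The intervals of 9 genes lie below 0 and that of GCLC spans it, and the ticks of TXNRD1, TXN and GCLC lie inside the interval of the gene.

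By level, the order in A2-siA4 cells was PRDX1, TXN, KEAP1, NQO1, OSGIN1, SRXN1, NFE2L2, TXNRD1, GCLM and GCLC. In Ctrl-siNC cells it was the same apart from OSGIN1 standing before NQO1. PRDX1 ranked 32 among all genes in A2-siA4 cells and 30 in Ctrl-siNC cells. OSGIN1 ranked 2216 in A2-siA4 cells and 910 in Ctrl-siNC cells. With no replicates it cannot be said which neighbours in this order differ beyond the spread of cultures. Together the 10 genes made up 0.480% of the FPKM sum in A2-siA4 cells and 0.524% in Ctrl-siNC cells, most of it PRDX1.

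Some values may hold reads of other loci. The library kits named in the labels do not mark strand, and GENCODE 29 places antisense transcripts over exons of NFE2L2, NQO1 and GCLC that have no row under those names in the tables. An exon of MMACHC overlaps PRDX1 on the other strand, and MMACHC was at 5.62 FPKM in A2-siA4 cells and 3.21 FPKM in Ctrl-siNC cells, far below PRDX1. A protein-coding locus with a clone name, AL121758.1, overlaps SRXN1 on its own strand and has no value under that name either, so the SRXN1 values may hold its reads. GENCODE names 7 pseudogenes after TXN and 1 after PRDX1, and how reads that match several places were counted is not given in the sources used here.

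Other genes of the pathway were described from lists of 78 genes, of which 67 reached 1 FPKM in a library, with 9 called lower and 1 higher. The median log2 ratio of the 67 was -0.26, and 49 (73.1%) were below 0. For all genes tested, 53.5% were below 0, with a median of -0.06, and 7.61% were called lower and 7.85% higher. Many of the 67 have a mean of 10 FPKM or more. Of all genes at that level 65.0% were below 0, with a median of -0.22, and 8.60% were called lower and 4.21% higher.

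Of 8 partners and competitors of NRF2, 5 were tested and 1 was called lower. MAFF, a small MAF protein that pairs with NRF2 and is itself inducible, was at 10.2 FPKM in A2-siA4 cells and 31.8 FPKM in Ctrl-siNC cells, 3.13-fold lower (2.65 to 3.73). The median of the 5 was 0.09, and -0.025 with length, GC and level trends removed. None of 12 tested genes of NRF2 degradation and KEAP1 binding was called, with a median of -0.08 that turned to between 0.014 and 0.053 under the 5 scalings and trend removals. With a pseudocount of 0.1 FPKM 3 of them, CUL3, BTRC and GSK3B, were called higher. CUL3, the scaffold of the ligase that KEAP1 serves, was at 2.98 FPKM in A2-siA4 cells and 1.36 FPKM in Ctrl-siNC cells, 2.196-fold higher (1.40 to 3.45), and was named after its values were seen. The most abundant were SKP1, an adaptor of another ubiquitin ligase that acts on NRF2, at 490 FPKM in A2-siA4 cells and 727 FPKM in Ctrl-siNC cells, and SQSTM1. SQSTM1, the autophagy receptor p62 that competes with NRF2 for KEAP1, was at 423 FPKM in A2-siA4 cells and 717 FPKM in Ctrl-siNC cells.

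Of 18 tested target genes of detoxification and iron storage, 3 were called lower and 1 higher, with a median of -0.37 and 7 above 0. The median was -0.13 with length, GC and level trends removed, and FTH1, the ferritin heavy chain, became the fourth one called lower with the level trend alone removed. The aldo-keto reductase AKR1B1, which reduces glucose and reactive aldehydes, was at 2160 FPKM in A2-siA4 cells and 5504 FPKM in Ctrl-siNC cells, 2.55-fold lower (2.51 to 2.59). Its paralog AKR1B10 was 8.13-fold lower (4.56 to 15.8) and AKR1C3, which reduces steroids and prostaglandins, 10.7-fold lower (4.01 to 32.0), on about 12.9 and 4.63 fragments in A2-siA4 cells. Both have close paralogs that can share reads, so these 2 values are uncertain. MGST1, a microsomal glutathione transferase, was the higher one, at 18.4 FPKM in A2-siA4 cells and 3.96 FPKM in Ctrl-siNC cells, 4.64-fold higher (2.53 to 9.78).

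All 6 enzymes of NADPH supply were below 0 with a median of -0.58, TALDO1 turning above 0 with trends removed. The 1 called lower was the cytosolic isocitrate dehydrogenase IDH1, at 6.18 FPKM in A2-siA4 cells and 21.4 FPKM in Ctrl-siNC cells. ME1 was also called lower with a pseudocount of 0.1 FPKM, and was named after its values were seen. Of 12 listed genes of the glutathione system 9 were tested, and all 9 were below 0 too, with a median of -0.54 and 3 called lower. GPX1 turned above 0 under the 5 scalings and trend removals and GPX4 under 4 of them. SLC3A2, the shared heavy chain of the cystine transporter and other amino acid transporters, was at 388 FPKM in A2-siA4 cells and 1470 FPKM in Ctrl-siNC cells, 3.78-fold lower (3.66 to 3.91). GPX3, a secreted glutathione peroxidase, was at 259 FPKM in A2-siA4 cells and 691 FPKM in Ctrl-siNC cells. CHAC1, which degrades glutathione, was at 6.73 FPKM in A2-siA4 cells and 14.9 FPKM in Ctrl-siNC cells, and lay within 2-fold with a pseudocount of 5 FPKM and in every scaling and trend removal that gave it a value.

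Of 13 paralogs and partners of thioredoxin and the peroxiredoxins, 1 was called lower. The median was -0.24 and turned to 0.058 with length, GC and level trends removed. MSRA was called higher with a pseudocount of 0.1 FPKM, on about 6.17 fragments in A2-siA4 cells and 0.881 in Ctrl-siNC cells. This gene was named after its values were seen. TXNIP, which binds and inhibits thioredoxin, was at 1.93 FPKM in A2-siA4 cells and 7.35 FPKM in Ctrl-siNC cells, 3.81-fold lower (2.17 to 6.61), and lay within 2-fold with a pseudocount of 5 FPKM. None of the 4 superoxide and peroxide enzymes was called, and all were below 0 with a median of -0.24, although SOD1 and SOD2 turned above 0 with length, GC and level trends removed. CAT, catalase, which breaks down hydrogen peroxide, was at 9.09 FPKM in A2-siA4 cells and 18.7 FPKM in Ctrl-siNC cells, 2.06-fold lower (1.71 to 2.48), and was called lower with a pseudocount of 0.1 FPKM. It too was named after its values were seen. The most abundant were SOD1, the cytosolic superoxide dismutase, at 914 FPKM in A2-siA4 cells and 1066 FPKM in Ctrl-siNC cells, and its mitochondrial counterpart SOD2, at 67.0 and 80.5 FPKM.

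**Figure D4:**
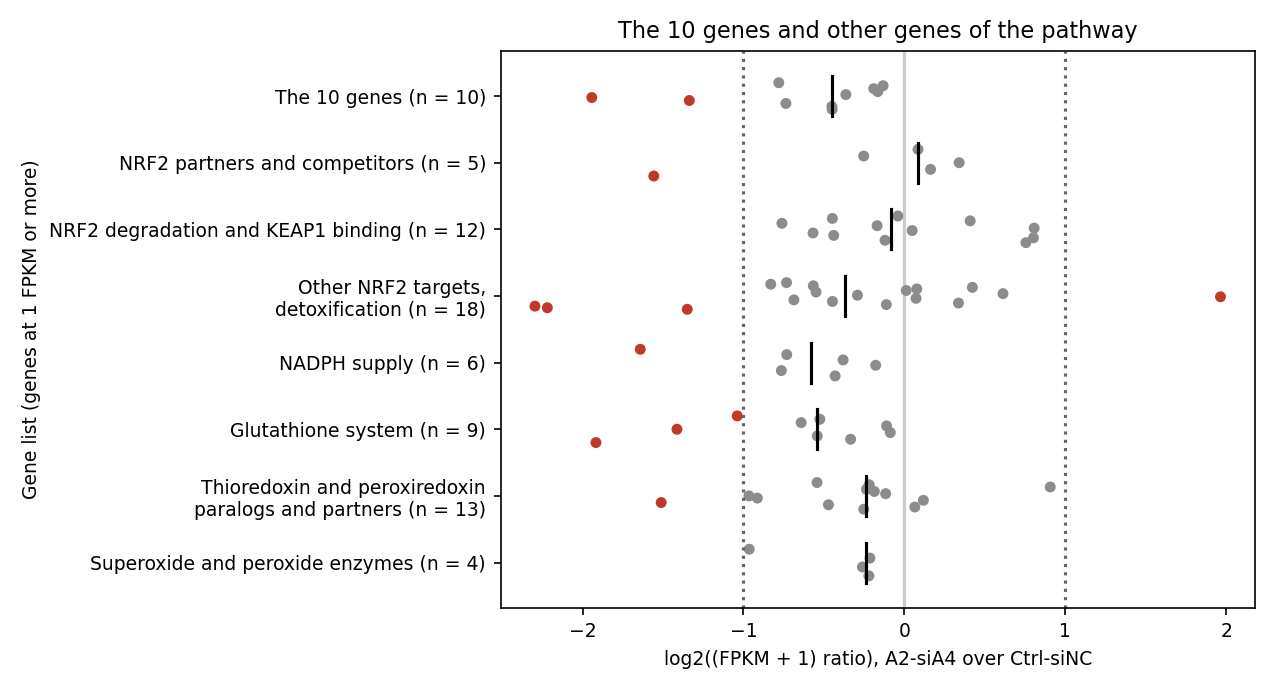
Log2((FPKM + 1) ratio), A2-siA4 over Ctrl-siNC, of the 10 genes and of the tested genes of each pathway list (1 point a gene, n beside the list), with genes past the 2-fold rule in red, the others in grey and the list median as a bar. As deposited, the median of the 10 genes is -0.45, that of NADPH supply -0.58 and that of NRF2 partners and competitors 0.09 (-0.025 with length, GC and level trends removed), and the red point on the right is MGST1.

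The ratios were read against the scale of the libraries. The FPKM of all genes summed to 866143 in A2-siA4 cells and 954761 in Ctrl-siNC cells. Scaling to a common sum moved the median of all genes tested to 0.06 and that of the 10 genes to -0.31, a gap of -0.37 against -0.39 as deposited. Under that scaling 64.0% of all called genes were higher, as were 61.5% when centred on the median ratio and 61.9% when centred on a trimmed mean, against 50.8% as deposited. With a pseudocount of 5 FPKM 36.6% were higher. OSGIN1 ranged from -1.96 to -1.69 and SRXN1 from -1.36 to -1.09 over 7 scalings and pseudocounts, and both were called lower in each. Without the trend on level, and without trends on length, GC content and level, the median of the 10 genes was -0.25, a gap of -0.24 to all genes. PRDX1, GCLC and TXN came within 0.1 of 0 in at least 1 of the 7.

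**Figure D5:**
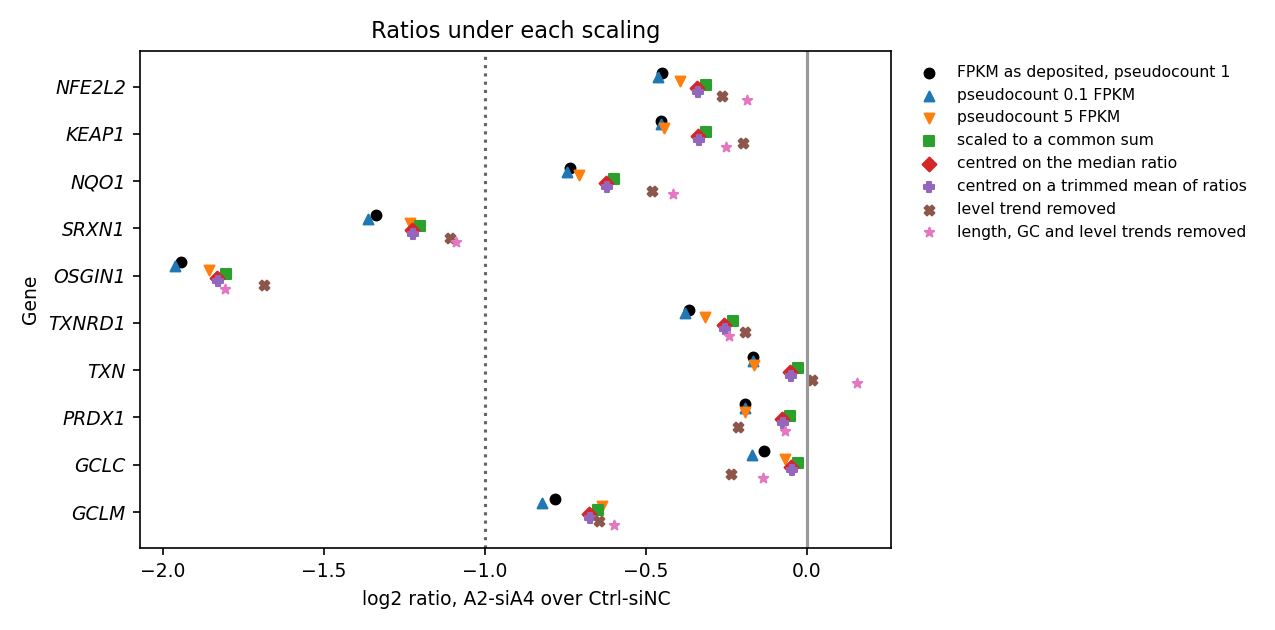
Log2 ratio of each of the 10 genes, A2-siA4 over Ctrl-siNC, as deposited with a pseudocount of 1 FPKM (black) and under the 7 alternatives (coloured symbols). OSGIN1 and SRXN1 stay left of the dotted line at -1 in all of them, the other genes lie between -1 and 0, and TXN alone crosses 0 in the 2 with trends removed.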

How the data were processed

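The authors deposited 1 table of FPKM per library, with 1 value per gene symbol, per the file headers. Cuffdiff 2.2.1, TopHat2 2.1.1, Bowtie2 2.2.8, SAMtools 0.1.18 and the build hg19 appear in the submitters' processing notes. For the annotation, filters and scaling between libraries, the authors' choices were not given in the sources used here. Per the labels' protocols, cDNA was made with SMART-Seq HT and libraries with Nextera XT. Groups follow the genotype labels.

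Ratios are log2((FPKM + 1) ratio). Depth was estimated from the FPKM of genes with 1 RefSeq-matched GENCODE 29 transcript of at least 300 bases, as the depth and shortening (200 bases) that put most values in a window 2% wide at 1 fragment. It was tested on simulated counts built with the same formula and the shortest transcript of each gene. Such a test cannot show errors from other transcript lengths, another annotation or PCR copies. PCR copies are not independent molecules. Lengths come from GRCh38 and may differ from those the authors used. Promoter coordinates are GRCh38.p14 and were not mixed with hg19. No p-value was computed. Named were the 10 genes, SMARCA2, SMARCA4, up to 4 called genes per direction of each pathway list, or its 2 most abundant, and a few markers. Some pathway genes whose call or direction turned with the setting were named too, as were the glutathione genes below 1 FPKM. The genes, lists and rules were chosen with earlier results of these data known. Alternatives were pseudocounts of 0.1 and 5 FPKM, 3 scalings, 2 removals of trends, filters (none, 1 FPKM in both libraries, 5 FPKM in 1) and rules of 1.5-fold and 4-fold. Python 3.11.15, numpy 2.4.6, scipy 1.17.1 and pandas 2.3.3 were used.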

Additional observations from a re-analysis of the deposited data

How the results depend on the processing

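OSGIN1 and SRXN1 were the genes of the 10 called lower under every scaling, pseudocount and trend removal, and none was called higher in any. A 1.5-fold rule called 4 of the 10 lower, beside 2505 of the 11785 genes tested, and a 4-fold rule 0, beside 84. The median of the 10 moved to -0.25 with the level trend removed and to -0.25 with length, GC and level trends removed. Among the 67 pathway genes tested, 5 were higher and 11 lower with a pseudocount of 0.1 FPKM. By 1.5-fold 6 of them were higher and 19 lower, and by 4-fold 0 were higher and 2 lower. Among all genes, 1630 were higher and 1267 lower with a pseudocount of 0.1 FPKM, and 219 were higher and 380 lower with 5 FPKM. With 1 FPKM or more in both libraries 557 were higher and 700 lower, and with 5 FPKM in a library 546 and 694. By 1.5-fold 2253 were higher and 2505 lower, and by 4-fold 71 and 84. Scaling a library by its sum cannot change the order of genes within it. Depth limits GCLC, AKR1B10, AKR1C3, TXNIP, ME1, GSK3B and MSRA, which rest on 39.9 or fewer fragments in A2-siA4 cells. It also limits CUL3 with 30.7, MGST1 with 12.4, SLC7A11 with 9.99 and SMARCA2 with 2.56 in Ctrl-siNC cells. No paired analysis was possible because each group has 1 library.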

Other observations

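The letters searched for were also set against the ratios of all genes with a RefSeq window and 1 FPKM or more in a library, 8748 genes. Of the genes with TGANNNNGC in a window 6.67% were called lower and 7.18% higher, against 7.505% and 7.46% of those without it. Of the 1747 with TGACNNNGC 7.10% were called lower and 7.61% higher, against 7.07% and 7.24% without it. Of the 395 with TGACTCA, added after the sequences had been read, 10.6% were called lower and 8.35% higher, against 6.91% and 7.27% without it. These are descriptions of 2 libraries with no test.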
